A study of Macaca mulatta with 64 samples.

Results

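The genes described here are those of the proteasome and of the enzymes that attach and remove ubiquitin, as seen by CAGE-seq in the rhesus macaque brain. They were chosen by name: every gene whose Ensembl macaque symbol starts with PSMA, PSMB, PSMC, PSMD, PSME, UBE2, UCHL or USP followed by a digit. The rule took 94 of the 13269 genes in the table, and no measured value entered it. It took 7 PSMA, 7 PSMB, 6 PSMC, 10 PSMD, 5 PSME, 20 UBE2, 3 UCHL and 36 USP genes. A further 38 symbols of the same form in the name table, among them PSMB6, PSMB7, PSMB10 and UBE2M, were not analysed here. PSMC3IP, PSME3IP1 and USP6NL came in by their prefix alone, since PSMC3IP is a factor of meiotic recombination, PSME3IP1 a partner of a proteasome activator and USP6NL a GTPase-activating protein.

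CAGE-seq reads the 5′ ends of capped, polyadenylated RNA, so each value counts tags at a start site and not reads along a transcript. The authors joined start sites that lay close together into transcript clusters. The values used here (TPM) are tags scaled to the same total in every library, given for 160389 listed positions. Some listed positions are adjacent, so whether each stands for a whole cluster of the authors is not known. A listed position is called a transcript cluster here. The TPM of a gene was summed over its listed positions, with no correction for length. The 64 libraries came from untreated, socially housed animals with no genetic change, and covered the cerebellar cortex (CB), the hippocampal regions CA1 and dentate gyrus (DG), and 5 neocortical regions, which were prefrontal (PFC), posterior cingulate (PCC), temporal (TC), parietal (PC) and occipital (OC) cortex. Females and males of 1, 4, 10 and 20 yr were used, and each region had 1 library for every age and sex, here called an animal group (8 groups). There were 2 animals of each age and sex. The paper describes its RNA-seq libraries as made from such pairs and the CAGE libraries as made from the same samples, which would make each library a pair of animals, though this is not stated for CAGE-seq itself.

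Proteins are marked for destruction by chains of ubiquitin. An E1 enzyme activates ubiquitin, an E2 enzyme (the UBE2 genes) carries it, and an E3 ligase places it on the target. The 26S proteasome then unfolds and cuts the target: PSMA and PSMB proteins form the 20S core, PSMC proteins the ring of ATPases and PSMD proteins the other subunits of the regulatory particle, while PSME proteins are alternative activators. PSMB8, PSMB9 and PSMB10 replace the standard catalytic subunits in the immunoproteasome, which interferon induces. Deubiquitinases of the USP and UCHL families trim or remove ubiquitin, and UCHL1 is among the abundant proteins of neurons.

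How many of these genes had a transcript cluster followed how many genes of any kind were listed in the library. The table lists a cluster only from about 1 TPM upward, which stood for 2 to 7 tags at the 1508330 to 6095190 tags per library that the spacing of the values gives (the PFC library of 20-yr-old females was the shallowest). A library listed 545 to 8143 genes of all kinds and 1 to 72 of the 94. CA1 libraries listed 31 to 72 of the 94, with a median of 49.5, and CB libraries 6 to 34, with a median of 18.5. The medians of the other regions were 23.5 in DG, 26 in PFC, 8.5 in PCC, 30 in TC, 25 in PC and 22 in OC. As median shares, CA1 libraries listed 52.7% of the 94 beside 41.3% of all genes, and PCC libraries 9.04% beside 9.45%. The summed TPM of the 94 genes did not follow the order of the counts. It had a median of 2934 TPM in CB (742 to 5217), 2626 TPM in CA1 (2418 to 3046), 2901 TPM in DG (1497 to 3778), 3285 TPM in PFC, 2349 TPM in PCC, 2926 TPM in TC, 2484 TPM in PC and 2413 TPM in OC. CA1 therefore had the most genes listed and the narrowest range of the sum, while PCC had the fewest listed. The TC library of 10-yr-old females stood apart, with 1 of the 94 listed, USP42 at 137.86 TPM. That library was sparse for genes of all kinds too, with 764 listed (5.76%), against a median of 3104.5 in TC. A gene listed at 0 is below the limit of the table and is not shown to be silent: PSMB4, a standard subunit of the core that every cell uses, was listed in 1 library of 64.

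**Figure D1:**
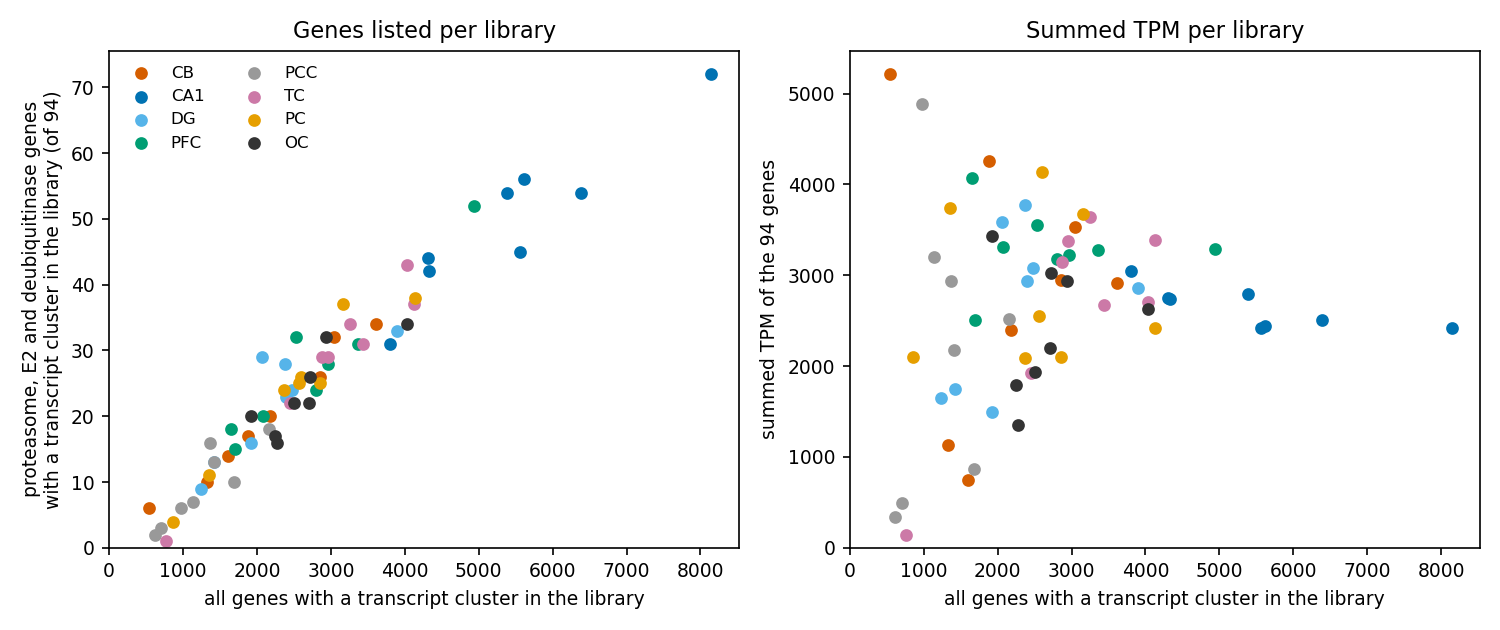
Left, the number of the 94 proteasome, E2 and deubiquitinase genes with a transcript cluster (y axis) against the number of all genes with one (x axis), 1 point per library, coloured by region. Right, the summed TPM of the same 94 genes on the same x axis. The count climbs with the number of genes listed, up to 72 of 94 in a CA1 library with 8143 genes, while the sum in CA1 stays between 2418 and 3046 TPM.

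No gene of the 94 was listed in all 64 libraries, and 22 (23.4%) were listed in 32 or more, against 13.9% of all genes. The 12 genes with the highest mean TPM carried 62.3% of the TPM of the group. They were PSMC3, UCHL1, PSMC5, PSMB1, UBE2S, USP11, PSME1, USP5, UBE2D3, PSMA6, PSMD2 and PSMB8. Each class thus had its highest member here: PSMA6, PSMB1, PSMC3, PSMD2, PSME1, UBE2S, USP11 and UCHL1. Because many libraries were at 0, levels are given as the number of libraries listed with the lowest, median and highest TPM, and no order between neighbouring genes or regions was tested.

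PSMC3, an ATPase of the regulatory particle, was listed in more libraries than any other of the 94 (59 of 64). Its TPM ran from 22.65 to 491 in CB (median 122, 8 of 8 libraries), from 221 to 533 in CA1 (median 301, 8 of 8) and from 0 to 539 in DG (median 218, 7 of 8). In the neocortex the medians were 558 TPM in PFC, 149 in PCC, 53.4 in TC, 195 in PC and 329 in OC. PFC and CA1 had no library under 220 TPM, whereas PCC spanned from 0 in the 10- and 20-yr-old females to 3183 TPM in the 4-yr-old males. PSMC5, a further ATPase of the same ring, was listed in 54 libraries. Its median was 67.5 TPM in CB, 69.4 in CA1, 137 in DG, 145 in PFC, 0 in PCC, 73.4 in TC, 192 in PC and 251 in OC. The ranges of the regions overlapped for both genes.

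UCHL1 was listed in 52 libraries. It ran from 257 to 499 TPM in CA1 (median 349, 8 of 8 libraries) and from 0 to 507 TPM in DG (median 247, 7 of 8), and was listed in 5 of 8 CB libraries, at 0 to 244 TPM (median 19.3). The medians in the neocortex were 93.2 TPM in PFC, 0.985 in PCC, 265 in TC, 174 in PC and 150 in OC. All 8 CA1 libraries were above all 8 CB libraries, the single pair of these regions that did not overlap for UCHL1. UCHL3 and UCHL5, its relatives, were listed in 10 and 7 libraries.

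PSMB1, a subunit of the core, was listed in 48 libraries and reached a median of 258 TPM in OC, where all 8 libraries were between 101 and 561 TPM. Its median was 0.715 TPM in CB, where 4 of 8 libraries were at 0, and 82.7 TPM in CA1. PSMA6, of the outer rings of the core, was listed in 41 libraries and had 2318 TPM in the CB library of 10-yr-old females, which listed 545 genes. The other 7 CB libraries had 0 to 159 TPM of PSMA6. UBE2S, the E2 that extends ubiquitin chains for the anaphase-promoting complex, was listed in 48 libraries, with medians of 8.34 TPM in CB, 170 in CA1, 151 in DG and 212 in TC. USP11 was listed in 49 libraries, with medians of 37.5 TPM in CB, 200 in CA1, 39.8 in DG and 159 in PFC.

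**Figure D2:**
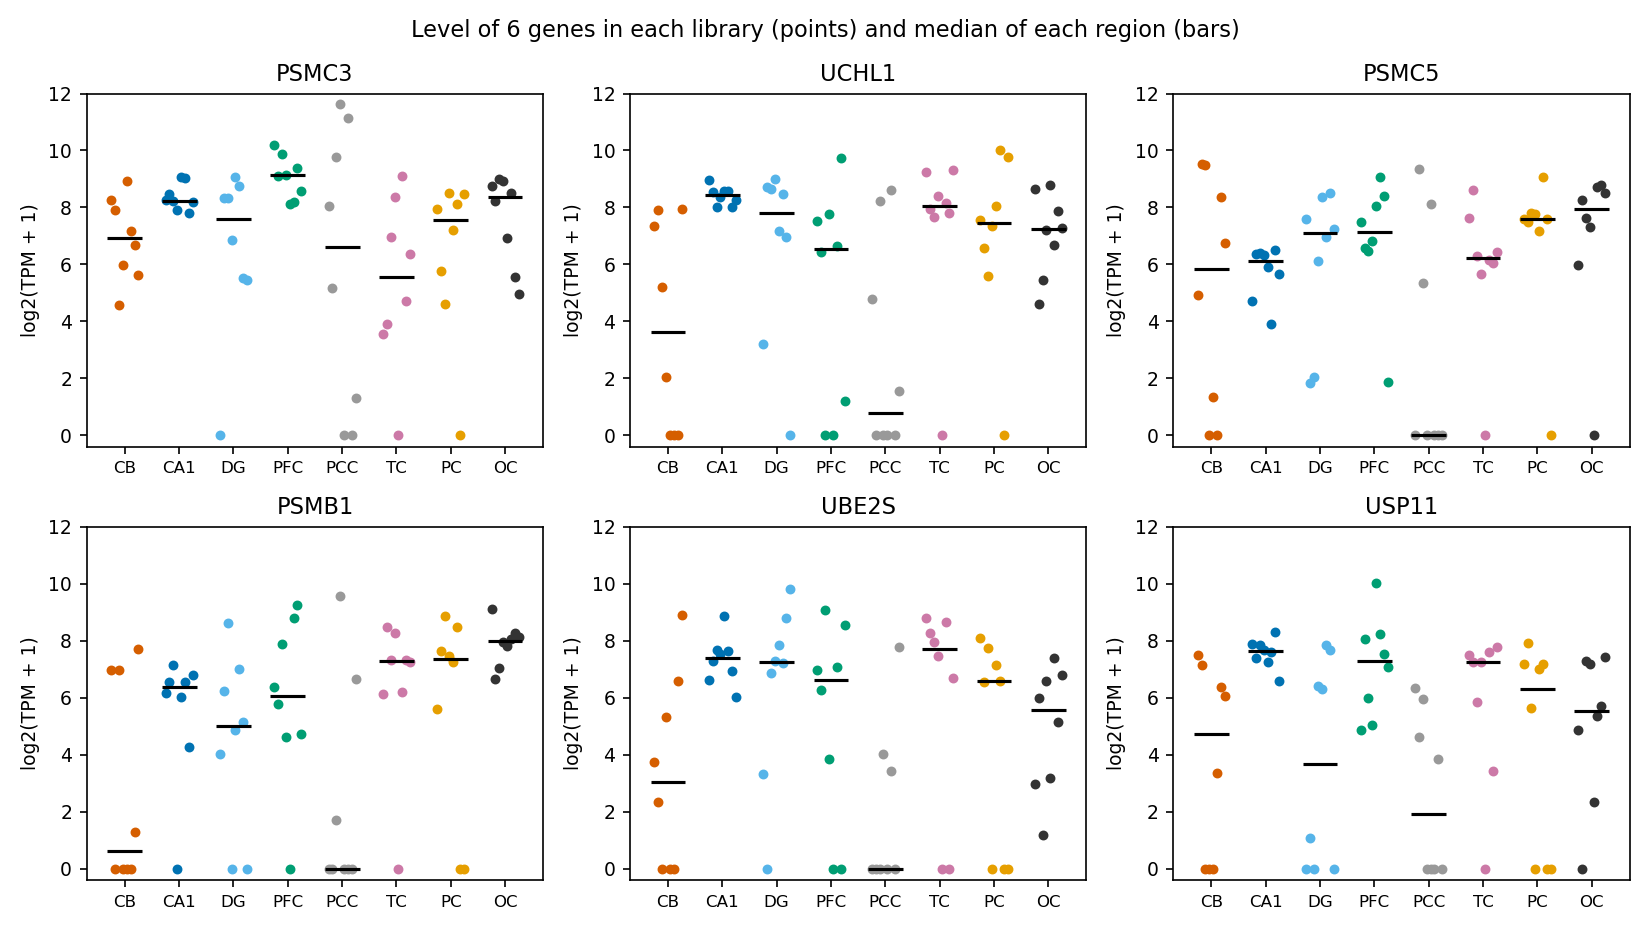
Level of PSMC3, UCHL1, PSMC5, PSMB1, UBE2S and USP11 as log2(TPM + 1) (y axis) in the 8 libraries of each region (points), with the median of the region (bar). Points at 0 are libraries in which the gene was not listed. All 8 CA1 points are above 0 for every gene but PSMB1, which was at 0 in 1 CA1 library, whereas CB and PCC have points at 0 for every gene but PSMC3 in CB.

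Of the immunoproteasome subunits, PSMB8 was listed in 38 libraries, at 0 to 547 TPM, and PSMB9 in 5 libraries, at no more than 11.66 TPM. PSMB5, the standard subunit that PSMB8 replaces, was listed in 45 libraries, at 0 to 461 TPM. PSME1 and PSME2 encode the subunits of the interferon-induced activator, and their genes lie beside each other on chromosome 7. PSME1 was listed in 39 libraries and PSME2 in 15. PSME1 reached 1517 TPM in PC, while PSME2 stayed at or below 293 TPM. PSME3, a nuclear activator, was listed in 16 libraries and PSME4 in 1, at 8.44 TPM in CA1. USP14, a deubiquitinase bound to the proteasome, was listed in 3 libraries, at up to 86.49 TPM.

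The positions of the tags within the genes are given by class. Of the TPM of the 94 genes, 50.7% lay within 500 nt of the annotated start and 8.88% further on in the last 10% of the gene, beside 53.7% and 12.1% over all genes. The PSM classes had most of their TPM near the start in 21 of 35 genes, with PSMC3IP and PSME3IP1 counted among the 21. The UBE2 genes had it there in 10 of 20 and the USP genes in 6 of 36 (16.7%), beside 38.1% of all genes. Most of the TPM lay in the last 10% in 6 of 20 UBE2 genes, 9 of 36 USP genes and 2 of 35 PSM genes, beside 18.1% of all genes. The difference between classes was not tested, and whether these RNA ends carried a cap was not tested.

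Several genes had most of their tags in a cluster listed at the same position in many libraries. PSMC5 (chromosome 16, 59340974 to 59345578, plus strand) had 71.8% of its TPM at 1 position 3722 nt inside the gene, in 45 libraries, and this was its highest position in 7 of 8 regions. Only 14.2% of its TPM lay within 500 nt of the start. PSMB8 (chromosome 4, 32536975 to 32540910, minus strand) had 79.8% at 1 position 2515 nt inside, in 35 libraries, on top in 6 of 8 regions, and none near the annotated start. PSMB5 (chromosome 7, 85854956 to 85864267, minus strand) had 73.9% at 1 position 1411 nt inside, in 43 libraries, on top in 7 of 8 regions. UBE2S (chromosome 19, 61422810 to 61429629, minus strand) had 74.4% at 275 nt, in 42 libraries, on top in all 8 regions. USP54 had 77.3% within a pair of adjacent positions at 69046 nt, near its end, in 30 libraries.

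PSMB1, PSMC3, PSME1 and PSMA6 had most of their tags within 500 nt of the annotated start, while UCHL1 and PSMD2 did not. PSMB1 (chromosome 4, 167539627 to 167558559, minus strand) had 97.4% of its TPM within 500 nt, 83.3% at 33 nt in 37 libraries, and this position was on top in all 8 regions. PSMC3 (chromosome 14, 24692381 to 24699818, plus strand) had 93.1% within 500 nt, spread over a block of 18 positions from 178 to 280 nt, with 75.0% of the TPM, and a smaller one from 42 nt before the start to the start itself, with 14.4%. PSME1 had 98.5% and PSMA6 99.4% within 500 nt. UCHL1 (chromosome 5, 36300196 to 36311494, plus strand) had 6.76% within 500 nt and 68.0% in a block of 20 positions from 550 to 651 nt after it, in 42 libraries. Measured within 500 nt, UCHL1 is thus nearly left out, although its block begins 50 nt beyond that limit. PSMD2, a scaffold subunit of the regulatory particle, had no TPM near the start.

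**Figure D3:**
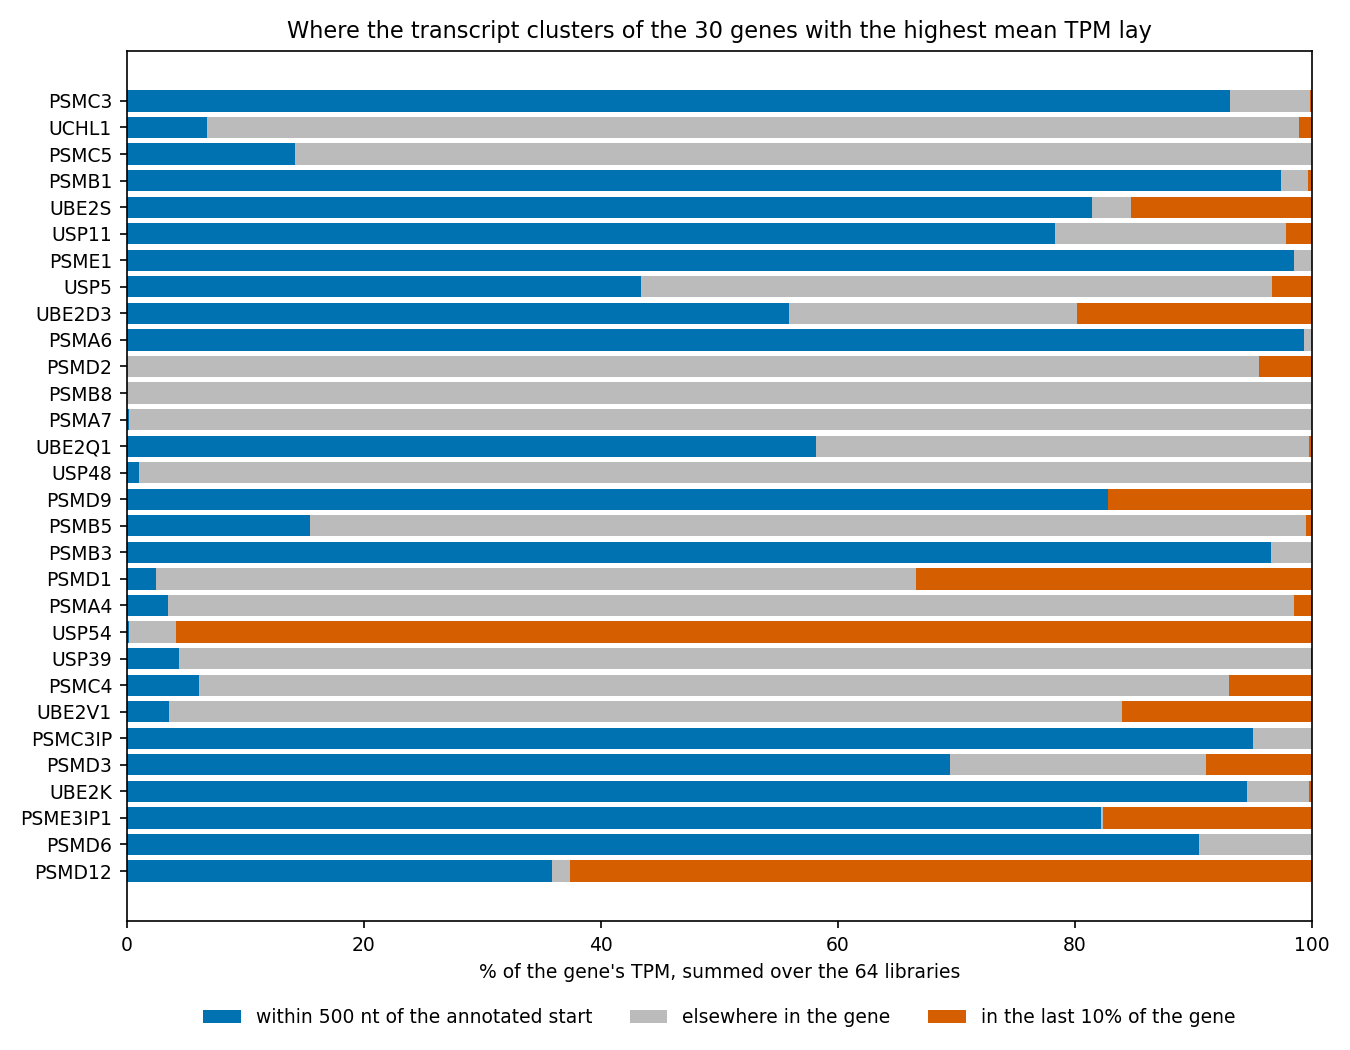
Share of the TPM of each gene (x axis, %, summed over the 64 libraries) that lay within 500 nt of the annotated start (blue), in the last 10% of the gene (orange) or elsewhere in it (grey), for the 30 genes with the highest mean TPM, highest on top. PSMC3, PSMB1, PSME1 and PSMA6 are almost wholly blue, PSMC5, PSMB8, PSMD2 and UCHL1 mostly grey, and USP54 almost wholly orange.

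To compare regions, ages and sexes, log2(TPM + 1) was tested with limma over the 6106 genes that reached 1 TPM in 8 or more libraries. A gene counted as called where its p, adjusted by Benjamini-Hochberg over all 6106, was under 0.05. The filter kept 55 of the 94 genes (58.5%, beside 46.0% of all genes). The other 39 were listed in 1 to 7 libraries, 9 of them in 1 library, and were not tested. Among these, USP39, a splicing factor of the USP family, reached 2224 TPM in the CB library of 10-yr-old females and no more than 102 TPM in any other. A gene listed mainly in 1 region passes the filter through that region.

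CB was compared with the other 7 regions to ask which genes mark the cerebellum. None of the 55 genes was called, while 113 of 6106 genes were (1.85%). At an unadjusted p under 0.05 there were 9 of 55, beside 12.1% of all genes, of which USP20, PSME2, PSME1 and UCHL3 had the higher mean in CB and PSMB1, UCHL1, PSMA7, PSMB2 and UBE2K the lower. The median difference was -0.56 for the 55 genes and -0.43 for all genes (log2), and 17 of 55 were above 0. The 10 cerebellar markers in the table summed to 2463 to 3665 TPM in CB and 0 to 771 TPM elsewhere.

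USP20, a deubiquitinase, had the smallest p. It had 530.52 TPM in the CB library of 4-yr-old females, 56.47 in that of 20-yr-old females, 3.12 and 2.83 in those of 10- and 4-yr-old males, and 0 in the other 4. Outside CB it was listed in 9 of 56 libraries, at up to 53.2 TPM. The difference was 1.77 ± 0.66 (log2, SE), with an adjusted p of 0.186 by limma, and CB was higher in 4 of 8 animal groups. With quantile normalization it was called, at 2.39 ± 0.56 and an adjusted p of 0.00434, and it was also called without the animal group of 1-yr-old males. USP20 has 94.8% of its TPM in the last 10% of the gene.

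UCHL1 had values in CB of 162, 237, 35.51, 3.12, 0, 0, 0 and 244 TPM in the animal groups taken by age, females before males, against a median of 209 TPM in the other 56 libraries. The difference was -2.48 ± 1.10 (adjusted p = 0.316, limma). PSMA7, a core subunit, was at 0 in all 8 CB libraries, against 24 of 56 libraries listed elsewhere (adjusted p = 0.318, limma). PSMB2 was likewise at 0 in all 8, against 22 of 56 (adjusted p = 0.332). Neither count can be read as absence from the cerebellum, since CB libraries listed a median of 2029 genes.

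Hippocampus (CA1 and DG, 16 libraries) was compared with neocortex (40 libraries). The test called 4 of 55 genes, all higher in hippocampus: PSMB2, UBE2E2, PSMA3 and USP19. That is 7.27% beside 8.48% of all tested genes (8.21% called as higher), so the share was near the background. At an unadjusted p under 0.05 there were 15 of 55, beside 23.0% of all genes. The median difference was 0.88 for the 55 genes and 0.55 for all genes.

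PSMB2, a subunit of the core, was listed in 11 of 16 hippocampal libraries, at 0 to 112 TPM (median 22.7), against 11 of 40 neocortical libraries, at 0 to 375 TPM (median 0). The difference was 2.49 ± 0.66 (log2, SE, adjusted p = 0.0101, limma), which is 1.94 above the median of all genes, and hippocampus was higher in 7 of 8 animal groups. PSMA3, of the outer rings, was listed in 7 of 16 libraries, against 3 of 40 (1.25 ± 0.38, adjusted p = 0.0279, limma). UBE2E2, an E2, was listed in 6 of 16 against 3 of 40 (1.32 ± 0.38, adjusted p = 0.0194, limma), and USP19, a deubiquitinase anchored in the endoplasmic reticulum, in 7 of 16 against 4 of 40 (1.43 ± 0.44, adjusted p = 0.0301, limma).

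UBE2E2, PSMA3 and USP19 were listed in 3, 4 and 5 libraries outside hippocampus, so they passed the filter of 8 libraries only through hippocampus and had to differ, and their calls are a description. PSMB2 was listed in 11 libraries outside it. With DG alone as hippocampus, limma called none of the 55 genes (1 at an unadjusted p under 0.05, beside 5.88% of all genes), and UBE2E2 and USP19, both at 0 in all 8 DG libraries, had differences of -0.27 and -0.48. With CA1 alone, 20 of 55 were called (36.4%), all higher, beside 27.9% of all genes. The 55 include genes that passed the filter only through CA1, among them UBE2E2 and USP19. Part of that count was thus fixed in advance, and the difference between the shares was not tested. The alternatives of DG alone and of CA1 alone were both chosen after seeing the data. Leaving out the animal group of 1-yr-old females, of 10-yr-old females or of 20-yr-old females left 1 (PSMB2), 2 (UBE2E2 and USP19) and 1 (PSMB2) calls. With quantile normalization, or with the number of genes listed as a term, limma called none of the 55 (10 and 8 at an unadjusted p under 0.05, beside 13.2% and 13.6% of all genes), though all 4 kept a positive difference.

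CA1 was then compared with DG, 8 libraries each. The test called 11 of 55 genes, all higher in CA1: USP19, UBE2E2, PSME3, PSMD14, USP15, USP8, PSME2, PSMC3IP, UCHL3, PSMB2 and USP11. That is 20.0%, beside 19.5% of all tested genes and 18.6% called as higher in CA1, so these genes were not called more often than others. The median difference was 1.36 for the 55 genes and 1.37 for all genes. By class, 1 of 5 PSMB, 1 of 6 PSMC, 1 of 8 PSMD and 2 of 4 PSME genes were called. So were 1 of 10 UBE2, 1 of 2 UCHL and 4 of 16 USP genes, and none of 4 PSMA genes. The PSMC gene called was PSMC3IP, which came in by its prefix alone, and no ATPase of the ring was called.

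PSME3 had 17.72, 34.82, 30.57, 9.27, 0, 15.2, 19.76 and 41.16 TPM in CA1, in the animal groups from 1 to 20 yr with females before males, and was at 0 in all 8 DG libraries (adjusted p = 0.000724, limma). PSMD14, the subunit that cuts ubiquitin off proteins entering the proteasome, had 25.43, 33.68, 54.33, 25.77, 13.29, 0, 18.88 and 15.95 TPM in CA1 and was at 0 in all 8 DG libraries (adjusted p = 0.00126, limma). It was also listed in 5 of 8 TC libraries, at up to 197 TPM. USP19 had 23.47, 35.0, 17.29, 33.57, 0, 56.29, 10.07 and 3.19 TPM in CA1 and was at 0 in DG (adjusted p = 0.000229, limma). In each of these genes 7 of 8 CA1 libraries were above all DG libraries.

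UBE2E2 was listed in 6 of 8 CA1 libraries, at up to 127 TPM, and its largest cluster, 141920 nt inside the gene, was listed in 1 library. USP8 and USP15, deubiquitinases, were each listed in 6 of 8 CA1 libraries, at up to 30.23 and 26.29 TPM, PSME2 in 6 of 8, at up to 34.21 TPM, and UCHL3 in 4 of 8, at up to 43.69 TPM. All of these were at 0 in the 8 DG libraries. No fold is given for the 8 genes at 0 in DG, because the size of their fitted difference rests on the pseudocount of 1 TPM. Of the 11 called genes, USP19, UBE2E2, USP15, USP8 and UCHL3 were listed in 3 to 6 libraries outside CA1. These 5 passed the filter of 8 libraries only through CA1 and had to differ, so their calls are a description. The other 6 were listed in 9 to 41 libraries outside CA1.

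Only 3 of the 11 called genes were listed in DG. PSMB2 had 10.02 to 112 TPM in CA1 (8 of 8 libraries) and 0 to 101 TPM in DG (3 of 8), a difference of 3.40 ± 1.11 (log2, SE, adjusted p = 0.0236, limma). PSMC3IP had 1.64 to 74.66 TPM in CA1 (8 of 8) and 0 to 44.63 TPM in DG (2 of 8), a difference of 4.25 ± 1.34 (adjusted p = 0.0192, limma). USP11 had 96.04 to 313 TPM in CA1 (8 of 8) and 0 to 232 TPM in DG (5 of 8), a difference of 3.91 ± 1.46 (adjusted p = 0.0465, limma). The ranges of CA1 and DG overlapped in all 3. UCHL1, PSMC3, PSMC5, PSMB1, UBE2S, PSME1, PSMB5 and PSMB8 were not called, with differences between -1.03 and 1.89.

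The calls between CA1 and DG depended on the scaling. With the number of genes listed as a term, UBE2E2 and USP19 were the 2 of 55 genes called (3.64%, beside 2.83% of all genes) and USP11 had a difference of -0.94. With quantile normalization, which brings the median of all genes to 0.12, limma called none of the 55 (9 at an unadjusted p under 0.05, beside 17.3% of all genes) and all 11 kept a positive difference. The number of genes listed had a median of 5474 in CA1 and 2220 in DG. Some cell type markers moved too. The 6 oligodendrocyte markers in the table summed to 4987 to 8193 TPM in CA1 and 736 to 4047 TPM in DG. The 9 general neuronal markers summed to 1155 to 2004 TPM in CA1 and 3189 to 10240 TPM in DG. Yet 7 of the 9 had a positive difference (median 2.41). Of the 9, 2 were called higher and 1 lower in CA1, beside 18.6% of all tested genes called higher. The 6 glutamatergic markers in the table summed to 223 to 914 TPM in CA1 and 43.3 to 740 TPM in DG, and the 6 GABAergic markers to 172 to 1054 TPM in CA1 and 59.2 to 556 TPM in DG. The 4 dentate markers summed to 2.00 to 118 TPM in CA1 and 0 to 382 TPM in DG. PROX1 and DSP were at 0 in DG. For the 3 CA1 pyramidal markers in the table the sums were 0 to 69.1 TPM in CA1 and 0 to 60.5 TPM in DG. Astrocyte markers (6) summed to 324 to 1212 TPM in CA1 and 138 to 1487 TPM in DG. Microglial markers (4) summed to 6.91 to 336 TPM in CA1 and 0 to 211 TPM in DG. The part of these differences in the calls was not tested, and in bulk tissue fewer cells of a type cannot be told apart from less RNA per cell.

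**Figure D4:**
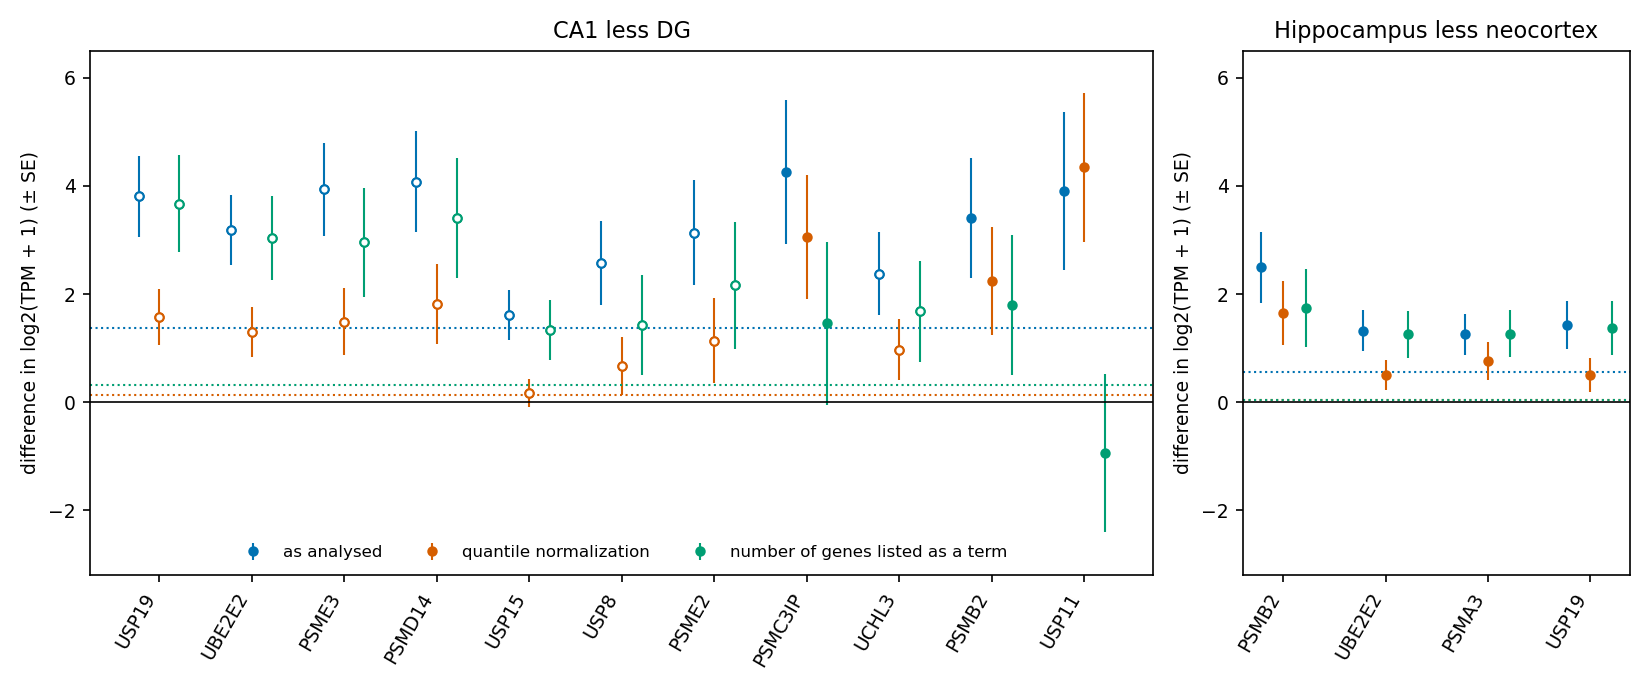
Difference in log2(TPM + 1) with its SE for the genes called between CA1 and DG (left, 11 genes) and between hippocampus and neocortex (right, 4 genes), as analysed (blue), with quantile normalization (orange) and with the number of genes listed as a term (green). Open symbols are genes at 0 in all 8 DG libraries, for which the size of the difference rests on the pseudocount. Dotted lines are the medians of all tested genes under the same setting. In the left panel the blue median is 1.37 and USP11 is the single gene with a point below 0, at -0.94 in green.

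For ages and sexes, the libraries of an animal group were first averaged over the regions, so that 8 values per gene entered the test. Between the later (10 and 20 yr) and the earlier ages (1 and 4 yr), none of the 55 genes was called and 5 of 6106 genes were (0.0819%). At an unadjusted p under 0.05 there were 7 of 55, beside 8.97% of all genes, all with the lower mean at the later ages: PSMC4, UBE2F, UBE2Q1, UBE2D3, UBE2V1, USP42 and UCHL3. Of these, UBE2F, USP42 and UCHL3 were listed in fewer than 8 libraries of the later ages. They reached the filter only through the earlier ages, so their direction is a description. The median difference was -0.33 for the 55 genes and -0.30 for all genes, and 10 of 55 were above 0, beside 28.8% of all genes. PSMC4, an ATPase of the regulatory particle, had the smallest p. It was listed in 12 of 32 libraries of the later ages (median 0 TPM) and 23 of 32 of the earlier ages (median 33.7 TPM). Its difference was -2.40 ± 0.74 (adjusted p = 0.335, limma), lower in both sexes. The number of genes listed had medians of 1987, 2752, 2276 and 2477 in the 10-yr-old females and males and the 20-yr-old females and males. In the 1- and 4-yr-old groups, in the same order, the medians were 2908, 3144, 2732 and 2450. In females both later groups were below both earlier ones, whereas in males both later groups were above the 4-yr-old group. With that number as a term, limma also called none of the 55 genes by age. Its part in the difference of PSMC4 was not tested further.

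Between neighbouring ages no gene of any kind was called. For 4 yr against 1 yr none of the 55 genes and 280 of all genes (4.59%) had an unadjusted p under 0.05, and PSMD6 had the smallest p (1.73 ± 0.96, adjusted p = 0.999, limma). For 10 yr against 4 yr there were 7 of the 55 and 375 of all genes (6.14%), and the smallest p was that of UBE2F, an E2 that carries the ubiquitin-like protein NEDD8 (-1.93 ± 0.69, adjusted p = 0.736, limma). UBE2F was listed in none of the 16 libraries of 10 yr, against 7 of 16 at 4 yr. For 20 yr against 10 yr there were 1 of the 55 and 212 of all genes (3.47%). That gene was PSME1, with a median of 74.2 TPM at 20 yr (13 of 16 libraries), against 0 at 10 yr (7 of 16), a difference of 2.87 ± 1.14 that was higher in both sexes (adjusted p = 0.9997, limma). PSMB8 did not separate the ages, with medians of 51.9, 33.0, 0 and 34.2 TPM at 1, 4, 10 and 20 yr.

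Between females and males no gene of any kind was called, with 2 of the 55 and 301 of all genes (4.93%) at an unadjusted p under 0.05. These were PSMA7 (-1.52 ± 0.69, adjusted p = 0.962, limma) and PSME3 (-1.03 ± 0.49, adjusted p = 0.962, limma), both with the lower mean in females at all 4 ages. Both were listed in fewer than 8 libraries of females and reached the filter only through males, so their direction is a description. The design has 3 residual degrees of freedom for ages and sexes, so a change of moderate size could be missed.

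**Figure D5:**
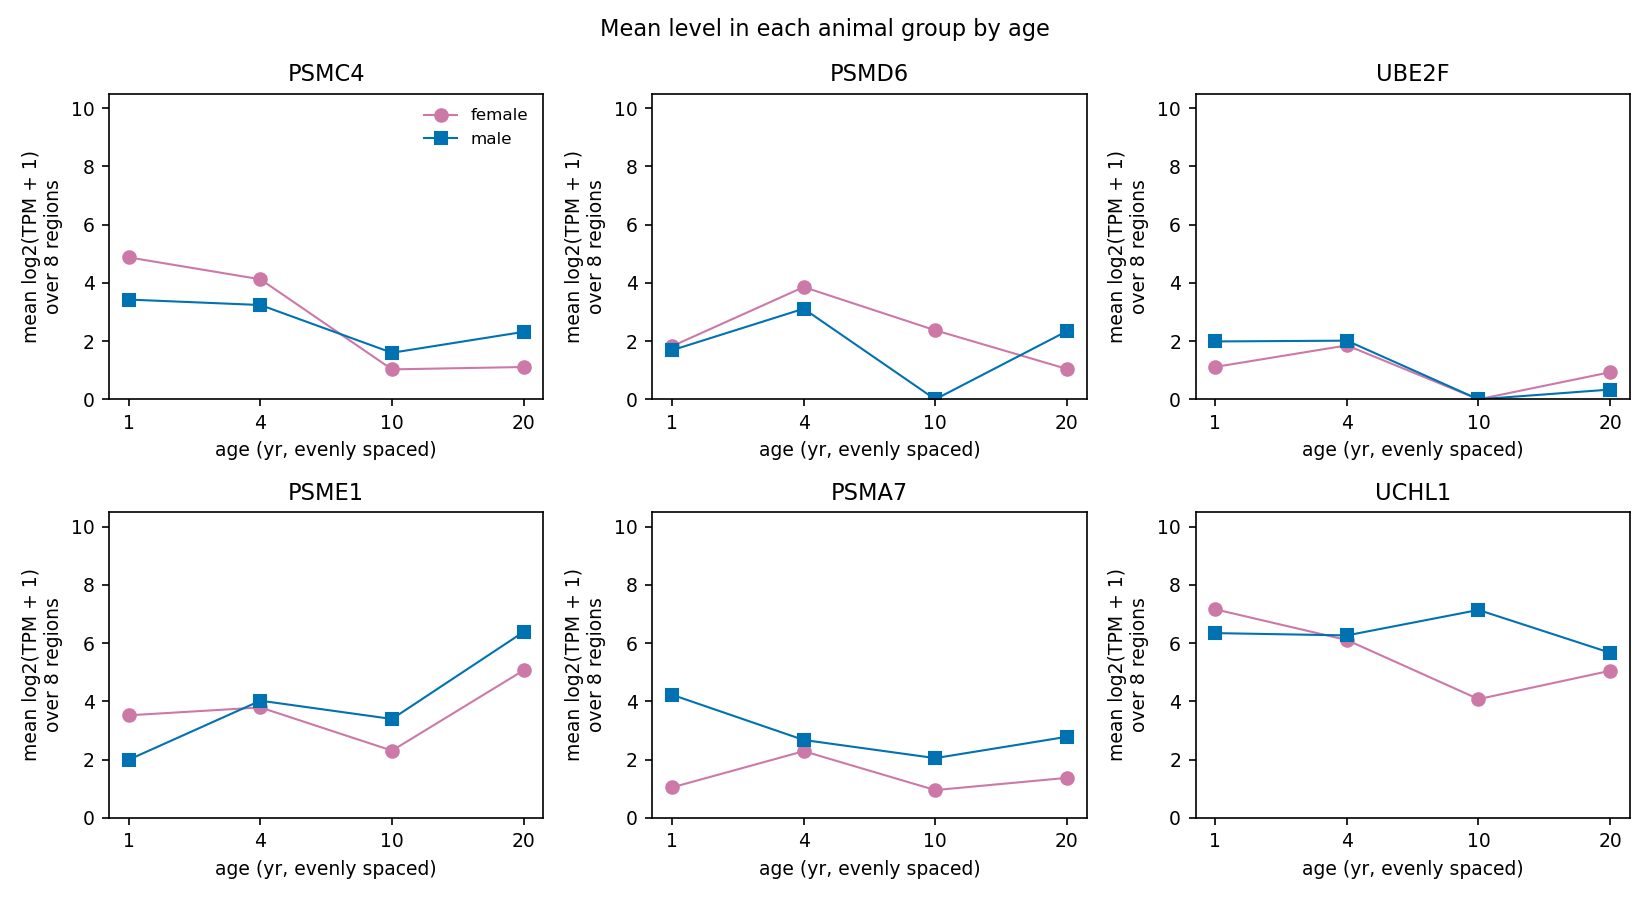
Mean of log2(TPM + 1) over the 8 regions (y axis) at 1, 4, 10 and 20 yr (x axis, evenly spaced) in females (circles) and males (squares) for PSMC4, PSMD6, UBE2F, PSME1, PSMA7 and UCHL1. PSMC4 is lower at 10 and 20 yr in both sexes, UBE2F is at 0 at 10 yr, and none of the 6 genes was called in any comparison of ages or sexes.

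Other genes of the pathway were followed as a list of 67, of which 54 had a row and 33 were tested. Between CA1 and DG, 5 of 33 were called, all higher in CA1: OTUD7B, UBE3A, UBQLN1, UBA2 and BAG6, which is 15.2% beside 19.5% of all genes. UBE3A, the E3 ligase lost in Angelman syndrome, was listed in 8 of 8 CA1 libraries (median 40.3 TPM) and 2 of 8 DG libraries (median 0), with an adjusted p of 0.00512 by limma. Between hippocampus and neocortex, 3 of 33 were called, all higher in hippocampus: PSMG1, UBE3A and OTUD7B, which is 9.09% beside 8.48% of all genes. OTUD7B was listed in 10 libraries, 7 of them in CA1 and none in DG. It passed the filter of 8 libraries only through CA1 and had to differ, so both of its calls are a description. None was called in CB or by age or sex, where 0, 5, 1, 0, 0 and 3 of the 33 had an unadjusted p under 0.05 for CB, the later ages, 4 yr against 1 yr, 10 yr against 4 yr, 20 yr against 10 yr and the sexes, beside 12.1%, 8.97%, 4.59%, 6.14%, 3.47% and 4.93% of all genes.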

How the data were processed

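The processed CAGE-seq table of 64 rhesus macaque brain libraries was analysed. Per the paper's methods for both its RNA-seq and CAGE-seq reads, the authors filtered them, aligned them to MMUL 1.0 with TopHat2 allowing 2 mismatches, kept uniquely mapped reads, which can miss near-identical copies, and clustered 5′ ends into transcript clusters. The deposited values are RPM, called TPM by the authors, with positions and the annotated start and end of each gene. Of 13269 gene IDs, 10069 had a symbol in the Ensembl names used. No column was left unused. TPM was summed per gene and tested as log2(TPM + 1) with limma 3.58.1 in R 4.3.3 (moderated, trend, two-sided). The fit for regions took the 64 libraries together, with a term for each animal group. The supplemental methods state that all 8 regions were taken from each specimen, and libraries of the same animal group had a mean correlation of deviations of 0.011, against -0.019 for others. Ages and sexes were compared on animal-group means. For regions, the spread is what is left between libraries after the terms for region and animal group. For ages and sexes, it is what is left between animal-group means after age and sex. Both include technical spread.

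Genes are named by a rule that takes the 12 with the highest mean TPM, the highest of each class, every called gene (at most 12 per comparison), the smallest p where none was called, and a fixed set that includes PSMB5 to PSMB10, PSME1 to PSME4, UCHL1, UCHL3, UCHL5, USP14 and UBE2M. Some genes that the rule or the lists take are not reported here. USP39, PSMB4, USP42 and USP54 and genes named by an unadjusted p alone were chosen after their values were seen. The genes, the lists and the tests were chosen with earlier results of these data known. The scripts were tested on simulated data. No promoter, protein or genome sequence was used here. Python 3.11.15, NumPy 2.4.6, pandas 2.3.3, Matplotlib 3.10.9 and version 1.17.8 of data.table were used.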

Additional observations from a re-analysis of the deposited data

Results flagged for a closer look

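The 12 genes with the highest mean TPM, the number of the 94 genes listed and their summed TPM (log2) were each examined in the 8 regions, 112 groups of 8 libraries. A library was marked when its gap to the nearest other exceeded 0.526 of the range of the group, which chance gives in about 1 group of 20, and 17 were marked.

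The TC library of 10-yr-old females was low for UCHL1 (0.0 on the log2(TPM + 1) scale, next 7.67), PSMC5 (0.0, next 5.65), PSMB1 (0.0, next 6.15) and PSMB8 (0.0, next 4.95), and for the summed TPM of the 94 genes (7.11 on the log2 scale, next 10.91). PSMC3 was low in DG of 1-yr-old females (0.0, next 5.44) and in PC of 20-yr-old females (0.0, next 4.61), where UCHL1 was low too (0.0, next 5.60). PSMC5 was low in PFC of 20-yr-old males (1.88, next 6.47), in PC of 20-yr-old males (0.0, next 7.18) and in OC of 10-yr-old females (0.0, next 5.97). PSMB1 was low in CA1 of 4-yr-old males (0.0, next 4.27). USP5 was low in PFC of 10-yr-old females (0.0, next 6.25) and in OC of 4-yr-old males (0.0, next 6.37). PSMA6 was low in CA1 of 10-yr-old males (4.18, next 5.74) and was the single library above 0 in PCC of 4-yr-old males (3.67). The PFC library of 1-yr-old males listed 52 of the 94 genes, against 32 in the next, that of 4-yr-old males. These 2 libraries listed 4942 (37.2%) and 2534 (19.1%) genes of all kinds. The TC library of 10-yr-old females listed 764 (5.76%). What set these libraries apart was not tested.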

How the results depend on the processing

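For CB, 1 gene was called with quantile normalization against none as analysed, and 0 to 1 when each animal group was left out. For hippocampus against neocortex the 4 calls became 0 with quantile normalization, 0 among genes listed in at least 32 libraries, 1 with positions of at least 5 TPM, 0 with the number of genes listed as a term, 0 with DG alone, 20 with CA1 alone, and 1 to 6 when each animal group was left out. For CA1 against DG the 11 calls became 0 with quantile normalization, 0 among genes listed in at least 32 libraries, 2 with the number of genes listed as a term, and 8 to 13 when each animal group was left out. The cause of these changes was not tested, except that the filter at 32 libraries leaves 22 of the 55 genes.

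With the number of genes listed as a term, USP11 had a difference of -0.94 between CA1 and DG, and with DG alone as hippocampus UBE2E2 and USP19 had -0.27 and -0.48. Without the animal group as a replicate block the calls were 0, 5 and 11 for CB, hippocampus and CA1, and the same with it as a random effect. Other alternatives stayed within 1.5 times these counts, among them a pseudocount of 0.25 TPM, no filter, positions within 500 nt of the start and omission of the shallowest library (PFC, 20-yr-old females). Chosen after seeing the data, leaving out the TC library of 10-yr-old females, or the CA1 library of 20-yr-old females with the CB library of 10-yr-old females, also stayed within it. With positions within 500 nt of the start, only 9 of the calls for hippocampus against neocortex and CA1 against DG held. Other called genes could not be tested there, among them UBE2E2, which had no TPM within 500 nt. None of the 55 genes, nor of those kept by another filter, was called by age or sex under any alternative run. A test on tag counts was planned and not run, because the smallest listed value stood for several tags.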
